A study of Harpegnathos saltator with 36 samples.

Results

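The genes described here are those of the ant Harpegnathos saltator whose brain transcript counts lay higher in most brains injected with siRNA against the corazonin receptor (CrzR) than in control brains. They number 50 of 18429 listed genes. The members were chosen by the counts themselves, from the same contrast that they describe. A gene had to average at least 10 CPM (counts scaled to a gene total of 1000000), to lie outside the 150 most abundant genes, and to span no more than 10-fold from lowest to highest brain in at least 1 siRNA group. Of the 7311 genes past these filters, a member had to be higher in the CrzR siRNA brain in at least 68 of the 81 possible pairs of a CrzR siRNA and a GFP siRNA brain. Its ratio of group means had to reach 1.3. Because this choice used the group difference, that difference is given below as a description and without a test.

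Each library held RNA of 1 brain, optic lobes removed, and is a biological replicate per the labels. There were 9 brains for each siRNA, and counts of 2 sequencing runs per brain are summed in the table. The ants had dueled on 3 consecutive days and were injected into the head on day 6 of their transition. The dose was 0.5 µl of Dicer-substrate siRNA at 5 µM with the reagent in vivo-jetPEI. One siRNA targeted CrzR, and the control siRNA targeted GFP, a fluorescent protein gene that ants lack. Brains were taken 1 day later, and both groups therefore carry the injection, the reagent and an siRNA. The labels give nests of 6 ants, 3 per siRNA, without saying which ants shared a nest.

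Corazonin is a peptide of the family that also holds adipokinetic hormone and, in vertebrates, gonadotropin-releasing hormone. It acts through a G protein-coupled receptor, CrzR, that insects carry on target cells of the nervous system and other tissues. In ants that duel after the loss of a queen, winners become reproductive individuals called gamergates, and corazonin is known as a peptide of the worker state. A transcript level in brain tissue is a sum over cells, so that fewer cells of a type and less RNA per cell cannot be told apart. The row IDs are not paired with gene names in the files, and 0 of 19198 IDs matched the reference table of 14329 genes of assembly Hsal_v8.6. No role can therefore be given to any member. The receptor itself, brain cell markers and the extent of the knockdown are not analysed here.

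Levels are given as normalized read counts, which are counts divided by a size factor per brain (the median ratio of the brain's gene counts to their geometric mean over the 18 brains). Total counts ran from 9741263 to 24166021 per brain. The first axis of variation among the 7311 filtered genes held 58.9% of their variance and went with the log2 depth of the library at r = 0.79 over 18 brains. CrzR siRNA brains had axis scores of 11.4 ± 31.4 and GFP siRNA brains -11.4 ± 33.2 (SD, n = 9 each). The values of the members beside this axis are given with each result that it touches.

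No transcript of the 10085 tested by edgeR's quasi-likelihood test passed the adjusted p threshold of 0.05 between the siRNA groups (0% of tested genes). None of the 50 members was called in that fit. At an unadjusted p under 0.05 the same fit listed 832 genes. Leaving out CrzR siRNA replicate 5 gave 1 call, and leaving out GFP siRNA replicate 8 gave 2. DESeq2 called 3 genes of the same 10085, and 2 of these were members. With limma voom and array weights 4 genes were called, 1 higher and 3 lower, and 1 of the 4 was a member. The authors' deposited table, a DESeq2 comparison of the same brains, lists 4 genes at adjusted p under 0.05, and 2 of them are members. In the authors' deposited table all 50 members have a positive log2 fold change, between 0.39 and 1.66. These counts come from the contrast that chose the members and are printed for orientation.

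The rule took 0.684% of the 7311 filtered genes. Its mirror image, with the same thresholds for genes lower after CrzR siRNA, took 29 genes, or 0.397%. This balance changed with the processing. CPM scaling gave 81 higher and 6 lower genes, and leaving out CrzR siRNA replicate 3 gave 32 higher and 48 lower. Removing each group's depth trend, an alternative chosen after seeing the data, gave 270 higher and 349 lower. The number of pairs alone was met by 70 genes in the upward and 52 in the downward direction, and 20 of the 70 had ratios between 1.11 and 1.29. At the edge of the pair threshold, 14 members had exactly 68 pairs, with ratios from 1.33 to 2.10. Just outside it, 8 genes had 67 pairs and ratios from 1.32 to 1.79. Genes on either side of the threshold thus had overlapping ratios.

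Hsal_02232 was higher in 77 of 81 brain pairs, the most of any member. Its lowest, median and highest normalized counts were 513, 1023 and 1466 in CrzR siRNA brains and 224, 419 and 800.1 in GFP siRNA brains. The groups overlapped through the lowest CrzR siRNA brains, and in 7 of the 9 the level after CrzR siRNA exceeded every control. The group means were 1043 ± 304 and 465 ± 175 (SD, n = 9 each), a ratio of 2.24. Its gene model, at 14148 bases, was the longest among the members.

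Hsal_12508 was higher in 76 pairs, with the larger ratio of 2 genes at that number. It had 232, 318 and 382 normalized counts (lowest, median, highest) after CrzR siRNA and 164, 214 and 301 after GFP siRNA. Every CrzR siRNA brain lay above the control median, and 6 lay above the highest control. The ratio was 1.43, and the standard deviations after CrzR and GFP siRNA were 0.22 and 0.25 on the log2 scale.

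**Figure D1:**
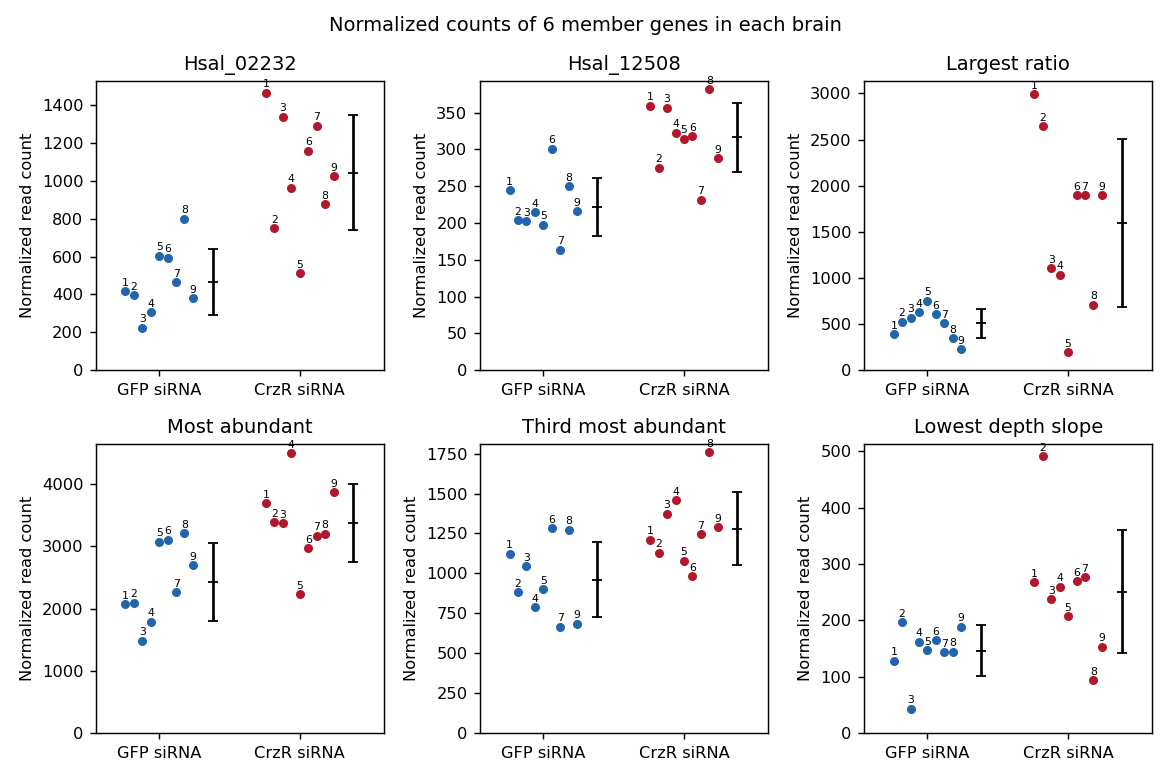
Normalized read counts (vertical axis) of 6 member genes in 9 GFP siRNA and 9 CrzR siRNA brains. Points are brains, labelled with their replicate number, and the bar beside each group is its mean ± SD. In all 6 genes the groups overlap, and for the gene with the largest ratio the lowest of all 18 values (192) is a CrzR siRNA brain.

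The plot of 6 members by brain shows the range of patterns that the rule let in. No member had groups that did not overlap, and among all 7311 filtered genes 1 did, in the downward direction. In 26 members all 9 CrzR siRNA brains were above the control median, and in 23 others 8 of 9 were. The required 68 pairs leave little room for fewer, so these counts follow largely from the rule.

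The ratio of group means ran from 1.31 to 3.15 over the 50 members, with a median of 1.48. It was at least 2 in 7 members and at least 1.5 in 23. On the log2 scale the median difference of group mean levels was 0.56, where the median over all filtered genes was -0.02. The member with the largest ratio had 192, 1896 and 2995 normalized counts (lowest, median, highest) in CrzR siRNA brains and 230.3, 526 and 754 in controls. Here 7 CrzR siRNA brains lay above all controls and 1, replicate 5, lay below them all. Smallest in ratio was a member with 397, 460 and 579 normalized counts after CrzR siRNA and 245, 353 and 484 after GFP siRNA.

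Members had low read counts among the filtered genes, with a median of 320.4 normalized counts where the filtered genes had 762.5. Their mean levels ran from 10.2 to 185 CPM, and 25 of 50 lay under 20 CPM. Per kilobase of gene model, the median member had 104 normalized counts, and the median filtered gene had 398. The most abundant member by read count, a model of 976 bases, also had the highest level per kilobase, with 2970.2 normalized counts. It stood at 2232, 3370.4 and 4499.7 normalized counts (lowest, median, highest) after CrzR siRNA and at 1482, 2259.8 and 3212 after GFP siRNA. The lowest level per kilobase, 27.7 normalized counts, belonged to the member with the third largest ratio (2.29).

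Gene models of members were long. The median length was 3300 bases, with quartiles of 2316 and 4217 bases, and 41 of 50 exceeded the median of 1973 bases over the filtered genes. The shortest model had 510 bases and a ratio of 1.45. The 29 genes chosen by the mirror image had a median of 1387 bases. The length was not used by the rule, but the difference between these lists was not tested, and the part that length or RNA quality has in the choice was not tested.

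Members also varied together around their group means, with both siRNA groups pooled. Correlations in 1 group alone are not given. After each group's mean log2 level was removed, the median Pearson correlation over 1225 pairs of members was 0.48 across the 18 brains, and 79.8% of pairs were above 0. Over all pairs of the 7311 filtered genes the median was 0.0023, with 50.1% above 0. Correlations above 0.5 made up 48.2% of the member pairs and 24.4% of the filtered pairs. The mirror list had a median of 0.38 over its 406 pairs. A first component held 43.8% of the members' variance within groups. These correlations share libraries and the axis that goes with depth. Filtered genes lie toward both ends of that axis, so that their positive and negative correlations offset each other in the median. Members were chosen in 1 direction of a contrast whose groups differ in mean axis score, so their correlations are not free of the rule.

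**Figure D2:**
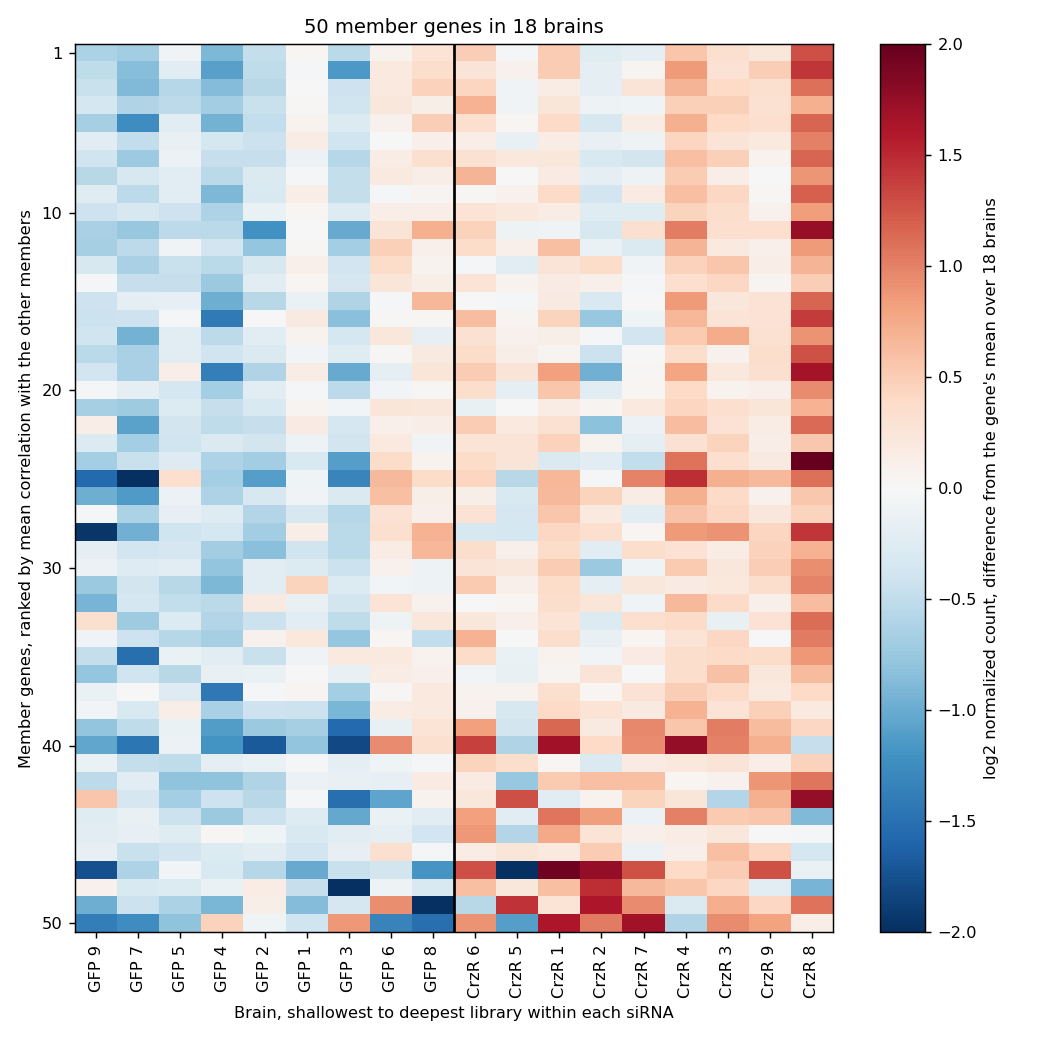
Log2 normalized count of each of the 50 members (rows) in each of the 18 brains (columns), as the difference from the gene's mean over all brains. Columns run from the shallowest to the deepest library within each siRNA, rows from the highest to the lowest mean correlation with the other members. The deepest CrzR siRNA brain, replicate 8, is the highest of its group for 35 members. The share over the filtered genes is not given.

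The highest and lowest values of many members fell in the same few brains. CrzR siRNA replicate 8, the deepest library, held the highest value of its group for 35 of 50 members. In GFP siRNA brains the highest value was in replicate 6 for 20 members and in replicate 8 for 16, and these are the deepest libraries of that group. The lowest value of the CrzR siRNA group was in replicate 2 for 21 members and in replicate 5 for 15. In the control group it was in replicate 7 for 16 and in replicate 4 for 12. The heat map of members by brain shows these columns beside the others. The same counts over the filtered genes are not given here. CrzR siRNA replicate 8 also had the highest score of all brains on the first axis (74.3). Its count therefore cannot be read as particular to the members.

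The median deviation of the 50 members from their own means summarises each brain. It ran from -0.08 to 0.90 log2 units in CrzR siRNA brains (median 0.34) and from -0.61 to 0.14 in GFP siRNA brains (median -0.42). The low end of the CrzR siRNA group was replicate 2, and the high end of the control group was replicate 6. Over the filtered genes the same median stayed between -0.06 and 0.03 in every brain, which the size factors bring about by construction. The members' median went with the first axis of all filtered genes at r = 0.79 over the 18 brains. Within groups, 36 of 50 members correlated with that axis above 0.5 and 0 below -0.5, whereas 35.6% of filtered genes were above 0.5 and 35.3% below -0.5. The members were chosen in 1 direction of a contrast whose groups differ in mean axis score, so this split is not free of the rule.

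A smaller number of members did not follow the common pattern. For 42 members the mean correlation with the other members exceeded 0.25, and for the remaining 8 it was below 0.1. The 42 had a median pairwise correlation of 0.61 and the 8 of 0.03. These 2 classes were drawn after the values were seen. They were cut on these same correlations, so the difference between their medians is not free of the cut. Lowest of all was the member with the third largest ratio, at a mean of -0.22. It had 65.7, 264 and 454 normalized counts (lowest, median, highest) after CrzR siRNA and 49.1, 80.5 and 259 after GFP siRNA.

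The members with the largest and the third largest ratio were correlated with each other within groups (r = 0.70). Both had their lowest CrzR siRNA value in replicate 5. Next below these in ratio (2.24) was a member that also stood apart and was near 0 with both of them (r = -0.03 and 0.06). Its values were 228, 555 and 1031 normalized counts (lowest, median, highest) after CrzR siRNA, with the highest in replicate 2. In controls they were 57.7, 217 and 641, with the lowest in replicate 8, where most members were high.

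The member with the lowest depth slope (tested below) and a second member, singled out because the pair was correlated (r = 0.64), were both among the 8. The first had 93.3, 259 and 491 normalized counts (lowest, median, highest) in CrzR siRNA brains and 42.7, 147 and 197 in controls. The second had 92.6, 251 and 360.2 against 83.9, 144 and 156. In both genes the lowest CrzR siRNA brain was replicate 8, the brain in which most members peaked. In each of them 7 brains of the CrzR siRNA group exceeded every control, and 8 exceeded the control median.

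Among the 1225 pairs of members, 2 (0.163%) had consecutive IDs, as did 0.017% of all pairs of filtered genes. The files do not say whether consecutive IDs are neighbours in the genome. Hsal_02232 and the gene with the next ID, which has the second largest ratio, were correlated at r = 0.78 within groups. The median was 0.15 over 4555 consecutive pairs of filtered genes and 0.48 over all 1225 pairs of members. Of the member pairs, 48.2% were above 0.5. The gene with the next ID had 261, 765 and 1345 normalized counts (lowest, median, highest) after CrzR siRNA. After GFP siRNA it had 113, 193 and 764, a ratio of 2.66. Its lowest brain in each group, replicate 5 after CrzR siRNA and replicate 3 after GFP siRNA, was also the lowest for Hsal_02232. The other pair was correlated at r = 0.31. Its first gene stood at 131, 319.9 and 468 against 128, 191 and 249 normalized counts (lowest, median, highest). Its second gene stood at 389.6, 599.7 and 732 against 317, 411 and 598.

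A relation to library depth was tested as a term beside the group difference. In an edgeR fit with siRNA group and log2 depth as terms, 22 of 50 members were higher in deeper libraries at adjusted p under 0.05. No member was lower in deeper libraries at that threshold. Over all 10085 tested genes, 32.3% were higher and 24.9% lower in deeper libraries, which is 3257 and 2507 genes. Scaling by library size alone turned this into 4125 and 1874 genes, with 32 members higher and 0 lower. Without CrzR siRNA replicate 8, 12 members (24%) were called higher, and 26.7% of the tested genes. Without GFP siRNA replicate 8 it was 14 members (28%), again with 26.7% of the tested genes. Without either of these brains the members' share was thus near that of all genes. A fit without the group term called 15 members (30%) higher, and 31.2% of the tested genes. Leaving out CrzR siRNA replicate 5 gave 1 member lower in deeper libraries. The members called on depth had slopes of 0.38 to 1.34 log2 units per doubling of depth. The median slope over all tested genes was 0.14 with this scaling. The tested genes include those with a mean of 1 to 10 CPM, which the rule leaves out. The share called on depth among the 7311 filtered genes is not given here. The rule favours genes with little spread within groups, and depth adds such spread, so that the members' share is not free of the rule. It also takes genes of 1 direction, and the groups differ in mean score on the axis that goes with depth. The sign of the members' slopes is therefore not free of the rule either.

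**Figure D3:**
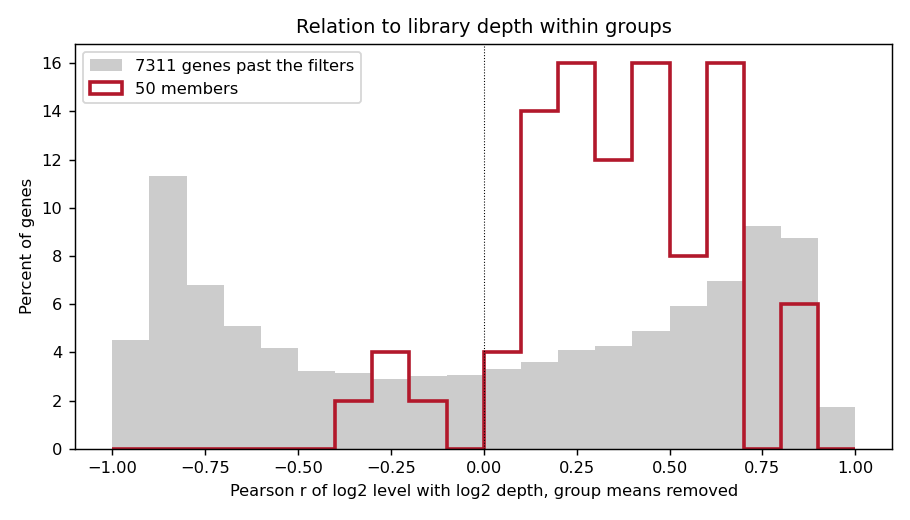
Percent of genes (vertical axis) by the Pearson correlation of log2 level with log2 library depth after removal of group means (horizontal axis), for the 7311 genes past the filters (grey) and the 50 members (red line). Filtered genes pile up at both ends, while 46 of 50 members lie above 0 and the median member is at 0.37.

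The histogram of correlations with depth shows members mostly on the positive side and seldom at the ends. The correlation was above 0 for 46 of 50 members and for 52.8% of filtered genes. Its median size without sign was 0.38 among members and 0.64 among filtered genes. In the mirror list the sign was turned, with 4 of 29 genes above 0 and a median of -0.29. The direction of the rule is also turned in that list, so the signs in both lists are not free of the rule.

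The third most abundant member by read count had the smallest p for depth. It rose by 0.67 log2 units per doubling of depth (SE 0.10, edgeR adjusted p = 2.1e-05, r = 0.89 within groups). Its values were 984, 1246 and 1758 normalized counts (lowest, median, highest) after CrzR siRNA and 665, 901 and 1282 after GFP siRNA. The lowest brain was in each group a shallow library, replicate 6 after CrzR siRNA and replicate 7 after GFP siRNA. The steepest slope of a member was 1.34 (SE 0.21, edgeR adjusted p = 3.79e-05). The lowest slope was -0.41 (SE 0.33, edgeR adjusted p = 0.298). Hsal_02232 had a slope of 0.29 (SE 0.26, edgeR adjusted p = 0.339) and Hsal_12508 one of 0.25 (SE 0.14, edgeR adjusted p = 0.130).

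The share of small nuclear RNA, a class of short non-coding RNA, was also used in place of depth. edgeR then called 17 members (34%) lower at a higher share and 0 higher. Of all tested genes, 32.2% were lower and 25.5% higher, so that the members' share of lower calls was near that of all genes. The share ran from 129 to 1685 CPM of all counts, lowest in GFP siRNA replicate 8, the deepest control, and highest in CrzR siRNA replicate 6, the shallowest library. The part of depth or RNA composition in the members' group difference was not tested.

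Sets of replicate numbers gave a view of how even the group difference was across the study. The labels do not tie ants to nests, so that reading numbers 1 to 3, 4 to 6 and 7 to 9 as sets is an assumption. All 50 members were higher after CrzR siRNA in each of the 3 sets, as were 18.7% of the 7311 filtered genes; the rule used these same brains. The median log2 difference of the members was 0.49 in numbers 1 to 3, 0.56 in 4 to 6 and 0.67 in 7 to 9.

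**Figure D4:**
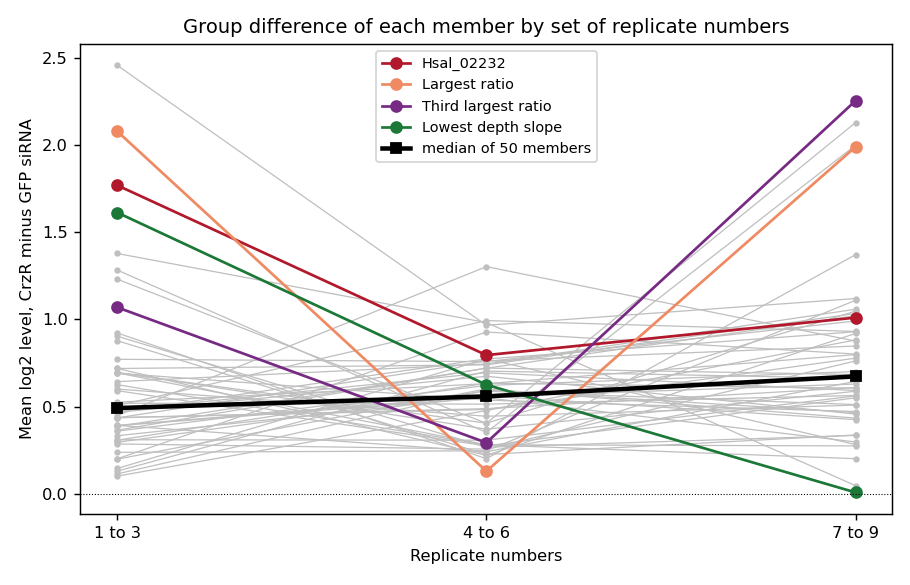
Difference of mean log2 level between CrzR and GFP siRNA brains (vertical axis) in 3 sets of replicate numbers (horizontal axis). Grey lines are the 50 members, coloured lines 4 of them and the black line the median, which lies between 0.49 and 0.67 in the sets. The gene with the largest ratio falls to 0.13 in numbers 4 to 6, and the gene with the lowest depth slope to 0.0080 in numbers 7 to 9.

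The plot by set shows that several members with large ratios were uneven across sets. Largest in ratio, 1 member differed by 2.08, 0.13 and 1.99 log2 units in the 3 sets. The third largest differed by 1.07, 0.29 and 2.25, and the next largest by 1.23, 0.40 and 2.13. A member with a ratio of 2.10 was more even, at 0.64, 0.74 and 1.06. The member with the lowest depth slope differed by 1.61, 0.63 and 0.0080, and its correlated partner by 1.38, 0.98 and 0.05, so that both were nearly level in numbers 7 to 9. Hsal_02232 differed by 1.77, 0.80 and 1.01 and Hsal_12508 by 0.60, 0.44 and 0.51. Each set compares 3 brains per siRNA, and whether the sets differ was not tested.

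Membership depended on single brains. When each brain was left out and at least the same share of pairs was required, the rule chose between 24 and 182 genes, of which 22 to 48 were among the 50. Pairs are whole numbers, so the share in force was slightly higher than with all brains. A member near 68 pairs could be lost whenever a brain with nearly all of its own pairs in favour was left out. Leaving out GFP siRNA replicate 8 gave 182 genes (48 of the 50), GFP siRNA replicate 6 gave 117 (48) and CrzR siRNA replicate 2 gave 116 (43). Leaving out GFP siRNA replicate 7 gave 24 genes, all among the 50. Without CrzR siRNA replicate 8 the rule chose 30 genes, 22 of them among the 50. Counts of 32, 29 and 32 followed from leaving out CrzR siRNA replicate 3, CrzR siRNA replicate 4 and GFP siRNA replicate 4. The mirror list moved too, from 10 to 112 genes over the same runs.

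**Figure D5:**
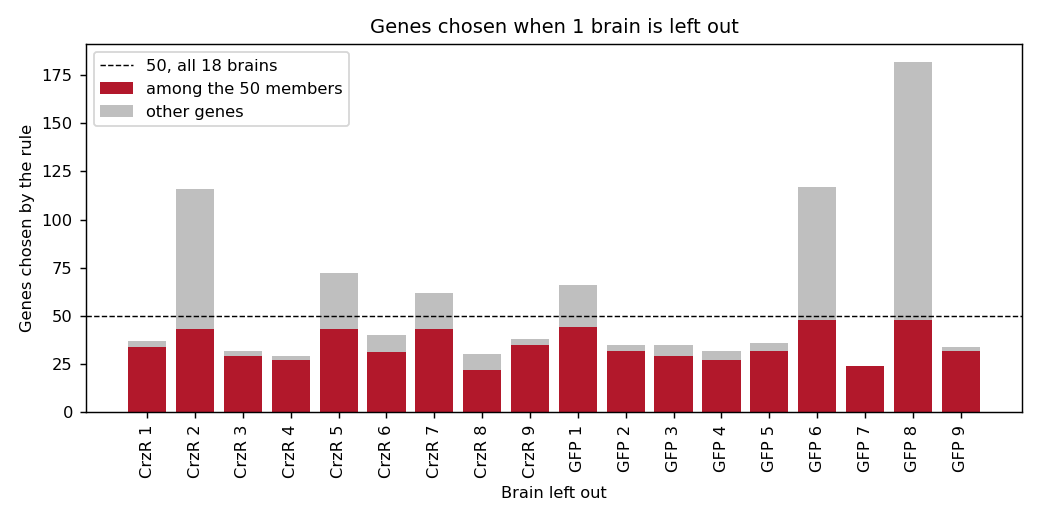
Number of genes chosen by the rule (vertical axis) when 1 brain is left out (horizontal axis), divided into the 50 members (red) and other genes (grey). The dashed line marks 50; the count is lowest without GFP siRNA replicate 7 (24) and highest without GFP siRNA replicate 8 (182).

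The bar chart of left-out brains shows that only the lower, red part of each bar is shared. In every one of the 18 runs 16 members stayed, each with at least 70 pairs and with ratios from 1.39 to 3.15. That floor of 70 pairs follows largely from the required share, because leaving out a brain removes at most 9 of a gene's pairs. Hsal_02232, Hsal_12508, the most abundant member and the members with the largest, second largest and the fourth largest ratio are among the 16. The member with the third largest ratio stayed in 9 runs, the one with the lowest depth slope in 10, the smallest ratio in 11, the third most abundant in 8 and the shortest in 5. In all, 20 members stayed in at most 9 runs. With the members fixed, their median log2 difference stayed between 0.49 and 0.63 whichever brain was left out. The members were chosen by this difference over the same brains, so that this range follows largely from the choice.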

How the data were processed

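Brain RNA was selected for poly(A) and made into strand-specific libraries, per the labels' protocols. STAR 2.5.0b and DESeq2 appear in the submitters' processing notes. Which tool counted reads, and on which genome build, is not given in the sources used here. Per the file headers, the authors' table gives whole-number counts per feature and brain, and RPKM. The run totals behind the RPKM add up to each brain's gene count, so the 2 runs were summed. In the deposited RPKM columns the library divisors are run totals of CrzR siRNA brains on odd lines and of GFP siRNA brains on even lines, whatever the column, so RPKM served only to recover gene lengths (within 5.46e-11 of whole numbers). The authors' deposited comparison table holds, per the file headers, a mean signal (baseMean), log2 fold changes and p-values. The 769 non-gene rows, 0.470% to 3.18% of counts per brain, stayed out of library sizes and tests.

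Levels were counts divided by median-of-ratios size factors, with 0.5 added before log2. edgeR 4.0.16 in R 4.3.3 (quasi-likelihood F test, TMM, two-sided, Benjamini-Hochberg) tested the 10085 genes with a mean of at least 1 CPM, with siRNA group alone or with log2 gene count. The fits were tested on simulated data. There the slopes on depth were recovered close to their true size, but a large part of the genes with a simulated slope was not called, and the pass mark for that share was lowered after the first run. DESeq2 1.42.0 and limma 3.58.1 were alternatives. Members and comparisons were chosen with earlier results of these data known. IDs are printed for the 2 members with the most pairs (ties by the larger ratio). Other members are described by rank in ratio, level, length or depth slope; those described for their correlations or consecutive IDs were chosen after their values were seen. The count of genes under permuted siRNA labels was not computed. Total counts averaged 17082437 ± 5058592 after CrzR siRNA and 16961502 ± 4680823 after GFP siRNA (SD over 9 brains).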

Additional observations from a re-analysis of the deposited data

Results flagged for a closer look

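Among 30 groups of 9 values examined (14 members and the members' median deviation, in each siRNA group), 2 held a brain far from the rest, where chance gives about 1 in 20. Both were in the member with the lowest depth slope. CrzR siRNA replicate 2 had 491 normalized counts, against 93.3 to 277 in the remaining brains after that siRNA. GFP siRNA replicate 3 had 42.7, against 128 to 197 in the remaining controls. The gene no longer met the rule without either of these brains, and stayed in 10 of the 18 runs that left out 1 brain.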

How the results depend on the processing

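Removal of depth or axis trends and of the 4 shallowest brains were alternatives chosen after seeing the data. The rule took 50 genes. It took 81 with CPM alone (41 of the 50; mirror list 6), 25 at a mean of 20 CPM, 12 at 72 pairs, 155 at 64 pairs and 23 at a ratio of 1.5. Removing each group's own trend gave 270 genes for depth (44 of the 50; mirror 349) and 623 for the first axis (47 of the 50; mirror 538); such removal narrows the spread within groups by construction. TMM gave 44 genes, and without the 4 shallowest brains 41 were chosen, 26 of them among the 50. Leaving out single brains moved the count between 24 and 182. It became 116, 32, 29 and 30 when CrzR siRNA replicates 2, 3, 4 and 8 were omitted, and 32, 117, 24 and 182 when GFP siRNA replicates 4, 6, 7 and 8 were. Genes called between siRNA groups by edgeR numbered 0; DESeq2 called 3 and limma voom with array weights 4, and leaving out single brains gave 0 to 2 (1 without CrzR siRNA replicate 5, 2 without GFP siRNA replicate 8). The 22 members called on depth became 32 with library size alone (where the tested genes' calls were 4125 higher and 1874 lower, against 3257 and 2507) and 9 with the replicate block (18%, with 25.5% of the tested genes called higher), and 12 to 25 without single brains. The members' share was 24% without CrzR siRNA replicate 8 and 28% without GFP siRNA replicate 8, with 26.7% of the tested genes in both, against 44% and 32.3% with all brains. Without GFP siRNA replicate 6 it was 30%, with 27.7% of the tested genes. A fit without the group term called 15 members (30%) higher, with 31.2% of the tested genes. The excess of members over all genes was thus small or absent when any of these 3 brains was left out. It was absent with the replicate block and without the group term. The cause was not tested. Same-numbered brains correlated above 0.1 in 3 of 9 pairs, and 3 of 18 brains were closest to their own number, so the numbers were not used as pairs; with the replicate block 0 genes were called between groups. The median fold change of the members stayed within the spread between brains under every alternative run, which follows largely from their choice by this difference.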
